A study of Mus musculus with 24 samples.

Results

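Whole tibialis anterior muscle of male mice heterozygous for a germ-line disruption of Vps39 (Vps39+/-) was compared with that of wild type (WT) males. The comparison holds the arrays whose sample title carries an M, which are 12 of the 24 arrays of the series, 6 Vps39+/- and 6 WT. All mice were on a C57BL/6J background, about 4 months old and untreated, and each array held total RNA of 1 muscle sample, hybridised to a Clariom S mouse array. The other 12 arrays hold the same genotypes in females. In the Vps39+/- mice a neomycin and EGFP cassette disrupts part of 1 copy of Vps39 in every tissue, and heterozygotes stand for the deficiency because embryos without the gene die. Littermates are not named in the labels, so p-values measure the spread between these samples, and nothing in the labels says what the number before the point in a sample title stands for.

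Vps39 is a subunit of HOPS, the complex that tethers late endosomes and autophagosomes to the lysosome so that their membranes can fuse. Skeletal muscle relies on this route to clear organelles and to recycle amino acids, and the amino acid sensor mTORC1 sits on the same lysosomal membrane. The study asked how a lowered dose of Vps39 affects gene expression in muscle, with an interest in autophagy, epigenetic enzymes and muscle function. The values are log2 intensities from robust multi-array averaging (RMA), so a difference of 1 is a doubling of signal.

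No gene passed the test between the male groups. After Benjamini-Hochberg adjustment of limma's p-values over 19572 named probe sets, 0 (0%) were below the 0.05 threshold. Before adjustment 1371 (7.00%) were below it, with 624 (3.19%) standing higher and 747 (3.82%) lower in Vps39+/- muscle, and of the 11754 probe sets averaging at least 5 the share was 7.10%. The higher share of these was 45.5%, but 24.5% with every array shifted to the same median and 56.0% without the 3 liver-rich arrays described below. The methods' t-test on the 12 arrays gave 0 after adjustment and 1444 before it. The values that follow are therefore differences that did not pass the adjusted threshold, ordered by role and set beside these shares. Array medians lay between 5.55 and 5.63 and the arrays correlated with each other at 0.964 to 0.989 (Pearson's r over probe sets, a description). Eif2s3y, Uty and Kdm5d, on the Y chromosome, were above every female array on 12 of 12 male arrays, and 12 muscle fibre markers averaged 13.03 ± 0.01 in WT and 13.02 ± 0.03 in Vps39+/- males (SD, n = 6).

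Liver transcripts stood out on 3 arrays. Alb, the serum albumin made by hepatocytes, was at 6.73, 6.23, 7.17, 5.38, 6.63 and 11.18 on WT arrays 1 to 6. On Vps39+/- arrays 1 to 6 it was at 5.96, 12.81, 13.36, 5.96, 7.00 and 8.09. Vps39+/- males 2 and 3 and WT male 6 were thus the high arrays, and the other 9 arrays lay between 5.38 and 8.09. The mean difference was 1.64, with an exact permutation p of 0.268 (two-sided, n = 6 per group, smallest possible p 0.0021645). Without Vps39+/- males 2 and 3 the sign turned, to a difference of -0.47 (exact permutation p = 0.790). The mean over the 40 measured of 48 listed hepatocyte genes ranged from 4.73 to 7.23 in WT and from 4.79 to 9.63 in Vps39+/- males, with an exact permutation p of 0.236 (n = 6), and 40 of the 40 differences were above 0 with a median of 1.19 and 0 at an unadjusted p under 0.05. None of these genes can be read as absent on this scale, and how liver RNA came to be on the arrays was not tested. With a block on the number before the point in the titles their median was 2.01, and 11 of 40 were then higher at an unadjusted p under 0.05. Vps39+/- males 5 and 6 carry a number that no WT male carries, so they add nothing to the difference under this block. It then rests on Vps39+/- males 1 to 4, which include the liver-rich males 2 and 3. The differences that follow were therefore recomputed with the Alb level of each array as a covariate and without these 3 arrays, where only 5 WT and 4 Vps39+/- arrays remain. These values are given singly for some genes and as ranges and counts for the others and for the gene lists.

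**Figure D1:**
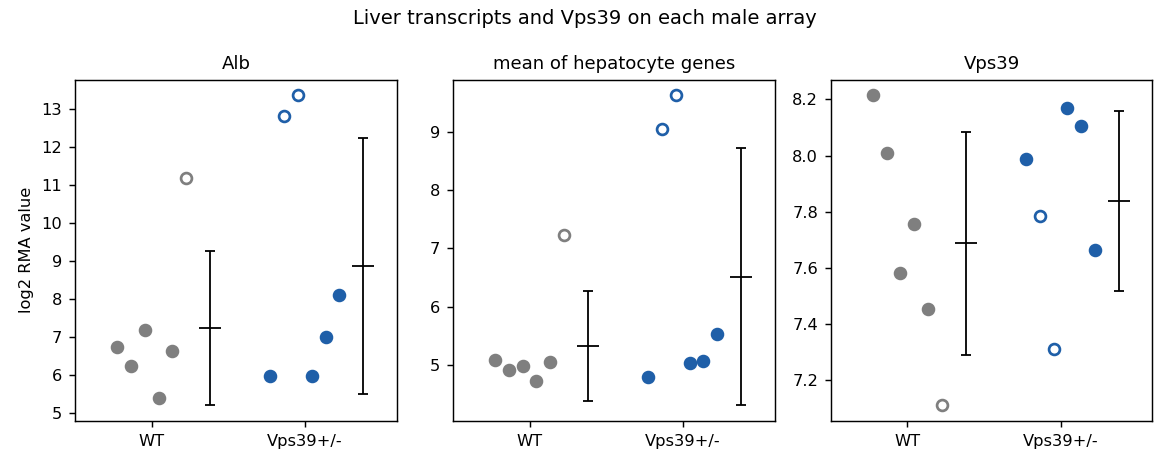
Log2 RMA values of Alb, of the mean over 40 hepatocyte genes and of Vps39 on each of the 12 male arrays, drawn in order of array number within each group, with the group mean and SD beside the points. Open circles are the 3 arrays with an Alb value over 11 (WT male 6 and Vps39+/- males 2 and 3), which are also highest for the hepatocyte mean, and the Vps39 values of the groups overlap.

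Vps39 itself was not lower on the arrays of the heterozygotes. WT arrays lay between 7.11 and 8.21 with a median of 7.67. Vps39+/- arrays lay between 7.31 and 8.17 with a median of 7.89. The groups overlapped over almost their whole range, and the means were 7.69 ± 0.40 and 7.84 ± 0.32 (SD, n = 6), a difference of 0.15 (exact permutation p = 0.487). The position of the array's probes relative to the disrupted part of the gene is unknown here, so the level does not check the genotype. With Alb as a covariate the difference was 0.30, and without the 3 liver-rich arrays it was 0.18. By qPCR the paper did find less Vps39 in tibialis anterior of Vps39+/- than of WT mice, with males and females pooled. That qPCR targeted sequence which the altered allele lacks. The array values were not compared with it, and they do not show that the dose was unchanged.

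The lowest p among genes lower in Vps39+/- males belonged to Paxbp1, which links the muscle progenitor factors Pax3 and Pax7 to a methyltransferase complex acting on lysine 4 of histone H3 (H3K4). Paxbp1 stood at 6.58, 6.81, 6.39, 6.15, 6.35 and 6.44 on WT arrays 1 to 6 and at 6.02, 6.21, 5.73, 5.85, 5.74 and 5.85 on the Vps39+/- arrays. All 6 Vps39+/- arrays were below the WT mean, and the groups overlapped only through Vps39+/- male 2, which was above WT male 4. The difference was -0.55 ± 0.10 (SE), 1.47-fold, with an adjusted p of 0.0696. It was -0.57 with Alb as a covariate and -0.59 without the 3 liver-rich arrays, so it was as large without them. Leaving out WT male 4 or Vps39+/- male 2 brought the adjusted p to 0.0459 and 0.0409. These are the arrays through which the groups overlapped, so removing either favours a lower p and is no support for the difference. With any other male array left out the adjusted p stayed above 0.05.

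Wdr5, the WD-repeat subunit that the MLL and SET1 methyltransferase complexes share and that is needed for H3K4 methylation, lay between 6.98 and 7.26 in WT males, median 7.17, and between 6.56 and 6.90 in Vps39+/- males, median 6.76. The groups did not overlap, as for 106 of all probe sets (0.542%), 53 of them lower in Vps39+/- (0.271%). Among brighter probe sets the share without overlap was 0.604%. The difference was -0.39 ± 0.08 (adjusted p = 0.244), and -0.37 without the 3 liver-rich arrays. Tasp1, the protease that cleaves the methyltransferase MLL into its mature form, was at 5.30 to 5.71 in WT and 5.10 to 5.45 in Vps39+/- males, a difference of -0.35 (adjusted p = 0.489) with overlapping groups. Of 18 measured members of a list of Paxbp1 and the H3K4 methyltransferase complexes, 14 had a difference below 0 with a median of -0.07, against 50.5% below 0 and a median near 0 over all probe sets. Among probe sets averaging at least 5, as all 18 do, 54.1% were below 0 with a median of -0.01. The list was named for the leading gene, so its count is no evidence separate from Paxbp1 and Wdr5. Of the 18, 3 were lower at an unadjusted p under 0.05 and 0 higher (16.7%, against 7.00% of all probe sets): Paxbp1, Wdr5 and Kdm6a, a demethylase for lysine 27 of histone H3 that sits in the MLL3 and MLL4 complexes (-0.25, adjusted p = 0.666). Without the 3 liver-rich arrays the median of the list was -0.08, with 12 of 18 below 0 and 2 lower.

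The promoters of Paxbp1 and Wdr5 are shown because these genes lead the comparison and act on the same mark. They are RefSeq sequences of build GRCm38.p6, 250 bases before to 50 after the start of the gene, read on the gene's own strand, at chr16:91044330-91044629 (minus strand) for Paxbp1 and chr2:27514897-27515196 (plus strand) for Wdr5. Capitals mark GGGCGG, the GC box bound by Sp1 family factors, and AGGTCA, the site of many nuclear receptors, both searched on either strand, so that CCGCCC and TGACCT are marked too.
Paxbp1: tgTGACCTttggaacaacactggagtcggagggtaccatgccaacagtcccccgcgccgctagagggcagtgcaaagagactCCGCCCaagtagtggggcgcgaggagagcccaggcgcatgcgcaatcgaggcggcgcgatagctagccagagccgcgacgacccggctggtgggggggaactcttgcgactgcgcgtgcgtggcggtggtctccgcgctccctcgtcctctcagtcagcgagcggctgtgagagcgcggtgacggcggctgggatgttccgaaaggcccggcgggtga
Wdr5: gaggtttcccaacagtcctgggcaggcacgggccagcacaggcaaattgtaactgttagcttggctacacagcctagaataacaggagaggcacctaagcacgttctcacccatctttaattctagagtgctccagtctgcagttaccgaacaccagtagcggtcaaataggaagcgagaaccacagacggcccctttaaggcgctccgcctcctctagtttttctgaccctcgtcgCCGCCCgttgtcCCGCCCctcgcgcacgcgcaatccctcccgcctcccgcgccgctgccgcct
Paxbp1 held 1 GC box and 1 AGGTCA match, and Wdr5 held 2 GC boxes and no AGGTCA match. Of 32851 promoters of this length 35.7% held a GC box and 16.3% an AGGTCA match, so GC boxes are common and the match is a description only.

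The other genes among the 10 of smallest p on the lower side differ in known role. Ebag9, a Golgi membrane protein that restrains regulated secretion, lay between 7.89 and 8.03 in WT, median 7.98, and between 7.57 and 7.77 in Vps39+/- males, median 7.64. Every Vps39+/- array was below every WT array, and the difference was -0.32 ± 0.07 (adjusted p = 0.244). Map3k5, the stress-activated kinase ASK1, lay between 6.26 and 6.81 in WT and between 6.04 and 6.24 in Vps39+/- males, with a difference of -0.43 ± 0.09 (adjusted p = 0.244). Its groups did not overlap, though WT males 2 and 4 lay within 0.05 of the highest Vps39+/- array.

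Wdr45b, a phosphoinositide-binding protein of the WIPI family that acts in autophagosome formation, was at 6.65 to 6.82 in WT and 6.20 to 6.60 in Vps39+/- males, a difference of -0.27 ± 0.07 (adjusted p = 0.533) with no overlap. Rbm22, which contacts the catalytic RNA of the spliceosome, lay between 7.14 and 7.46 in WT and between 6.73 and 7.19 in Vps39+/- males. Its groups overlapped through Vps39+/- male 3, with a difference of -0.38 ± 0.10 (adjusted p = 0.539). Mphosph6, a cofactor of the RNA exosome in ribosomal RNA maturation, had a difference of -0.47 that shrank to -0.27 without the 3 liver-rich arrays, and Vps39+/- male 3 was its lowest array at 5.23. Zfp280c, a zinc finger protein (-0.44), and Gm21992 (-0.34) completed the 10 genes of smallest p, of which 5 did not overlap between the groups. Over all probe sets the share was 0.542%. A choice by smallest p favours groups that do not overlap, so this count is a description only. All 10 kept their sign with Alb as a covariate, at 0.939 to 1.11 times their size, and without the 3 arrays they were at 0.582 to 1.13 times.

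On the higher side the 10 genes of smallest p had adjusted p between 0.265 and 0.559. Fam221a lay between 4.85 and 5.37 in WT, median 5.15, and between 5.39 and 5.79 in Vps39+/- males, median 5.60, a difference of 0.47 ± 0.11 (adjusted p = 0.265). It was 0.44 with Alb as a covariate and 0.32 without the 3 liver-rich arrays, which hold its lowest WT and its highest Vps39+/- values. B4galt7, the galactosyltransferase that builds the linker between proteoglycan proteins and their sugar chains, lay between 6.12 and 6.58 in WT and between 6.58 and 6.88 in Vps39+/- males, with a difference of 0.46 ± 0.11 (adjusted p = 0.383). Neither gene's groups overlapped, for B4galt7 by less than 0.01. Whrn, a PDZ scaffold known from hair cells, stood clear by 0.16, at 5.78 to 5.98 in WT and 6.15 to 6.42 in Vps39+/- males (0.35 ± 0.10, adjusted p = 0.550).

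The other 7 had smaller gaps than Whrn or overlapped. Nog, the BMP antagonist noggin, was at 4.42 to 5.13 in WT and 5.02 to 5.36 in Vps39+/- males (0.44, adjusted p = 0.533), and Cxcr3, a chemokine receptor of T cells, differed by 0.39 (adjusted p = 0.489). The zinc finger gene Zfp773 (0.43), Wdr86 (0.40), the protamine gene Prm3 (0.40), the beta-defensin gene Defb46 (0.37) and 2410017I17Rik (0.43) made up the rest. Of the 10, 6 did not overlap between the groups, which the choice by smallest p again favours (0.542% over all probe sets). All 10 kept their sign with Alb as a covariate at 0.863 to 1.08 times their size. Without the 3 liver-rich arrays they were at 0.693 to 1.24 times. Of 27 genes of proteoglycan assembly B4galt7 was the 1 at an unadjusted p under 0.05 (3.7%, against 7.00% of all probe sets), and 16 lay below 0.

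**Figure D2:**
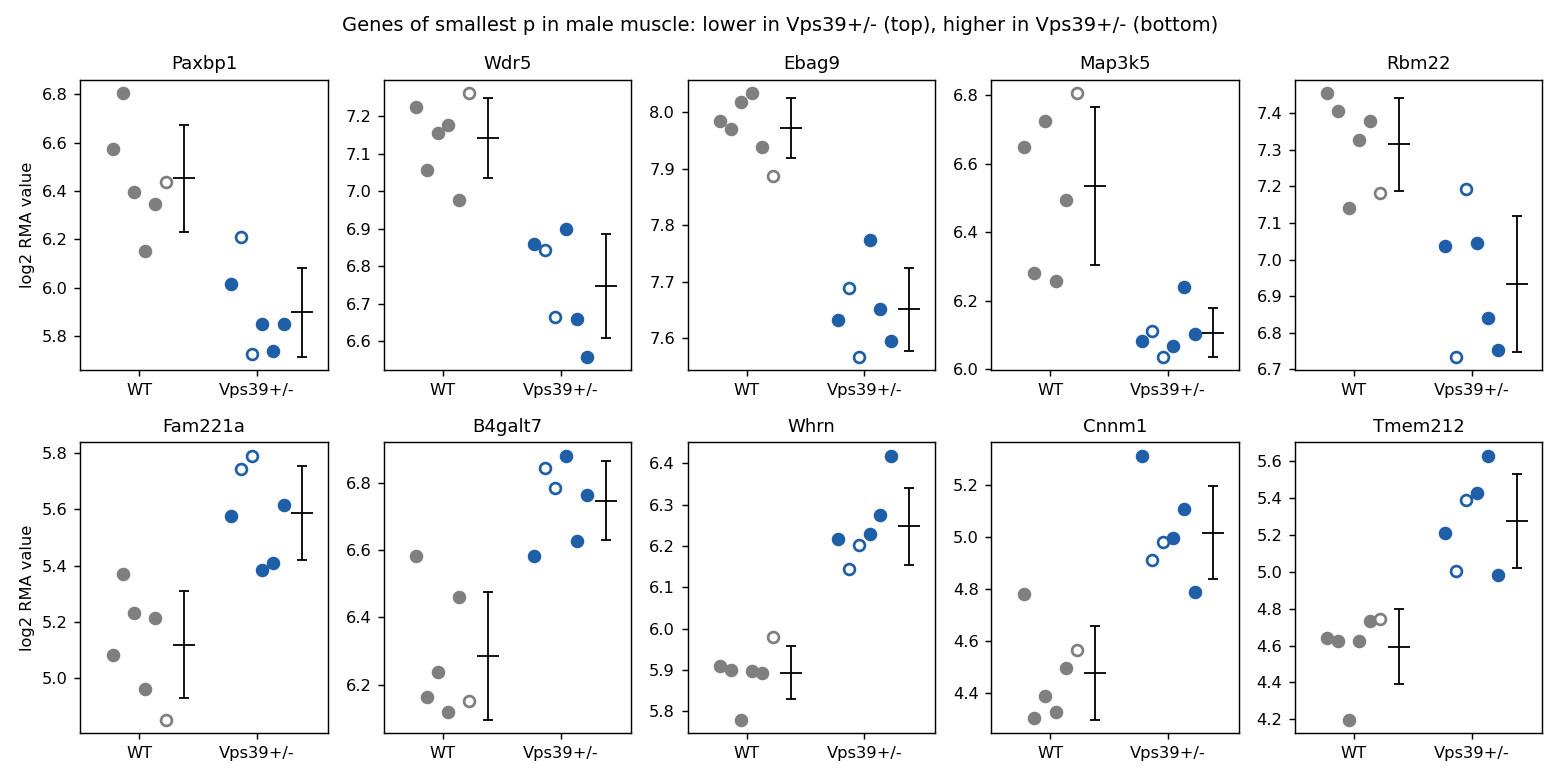
Log2 RMA values on each male array of 5 genes lower and 5 genes higher in Vps39+/- muscle, drawn in order of array number within each group, with the group mean and SD. Open circles are the 3 arrays with an Alb value over 11, which hold the lowest WT and the 2 highest Vps39+/- values of Fam221a. Paxbp1 and Rbm22 overlap between the groups, and the other 8 do not. The genes were chosen for a small p on these arrays, which favours groups that do not overlap.

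Among probe sets averaging at least 5, the largest differences with an unadjusted p under 0.05 were those of Cpn1 and Agxt, both made by liver. Larger differences above that p were those of hepatocyte genes, up to 1.70, and on the lower side that of Gm3893, at -0.83. Cpn1, the catalytic subunit of carboxypeptidase N secreted by liver, was at 4.45 to 5.06 in WT and at 5.25, 6.29, 6.57, 5.09, 5.40 and 5.20 on Vps39+/- arrays 1 to 6, a difference of 0.83 ± 0.38 (adjusted p = 0.691). Agxt, a peroxisomal aminotransferase of hepatocytes, was at 4.60 to 5.54 in WT and reached 6.38 and 7.07 on Vps39+/- males 2 and 3 (0.73, adjusted p = 0.71). Both peaked on the arrays of highest Alb, and without the 3 liver-rich arrays the differences were 0.43 and 0.30. Grb7, an adaptor of receptor tyrosine kinases (0.49), Slc7a10, a transporter of small neutral amino acids (0.48), and Ankrd54 (0.51) differed by 0.42 to 0.51 with Alb as a covariate. On the lower side Fam205a2 differed by -0.63, Fcrl1, a B-cell receptor of the Fc receptor family, by -0.51, Gm3558 by -0.50 and Kdm5d, the Y-linked H3K4 demethylase, by -0.50. Kdm5d was lowest on Vps39+/- male 3 at 3.95, and its difference was -0.27 without the 3 liver-rich arrays.

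Among probe sets with a mean value under 5, where signal is dim, a pair of genes had the smallest p of the whole comparison. Cnnm1, of the cyclin M family of magnesium transport proteins, lay between 4.3 and 4.78 in WT and between 4.79 and 5.31 in Vps39+/- males (0.54 ± 0.10, adjusted p = 0.0696). Tmem212, a transmembrane protein, lay between 4.2 and 4.74 in WT and between 4.99 and 5.63 in Vps39+/- males (0.68 ± 0.12, adjusted p = 0.0696). The groups did not overlap for either, and without the 3 liver-rich arrays the differences were 0.59 and 0.75. Dnase1l2, a DNase of skin, was 0.70 higher with WT male 5 inside the Vps39+/- range, and leaving out that array brought its adjusted p from 0.248 to 0.0448. Leaving out WT male 1 brought Cnnm1 to 0.0288. For each gene the array left out was the highest of the WT arrays, so its removal favours a lower p. No other male array left out brought either gene under 0.05. Krtap5-2 (-0.43), Cst13 (-0.66) and the olfactory receptor gene Olfr170 (-0.63) were the lower ones (adjusted p = 0.244 each).

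**Figure D3:**
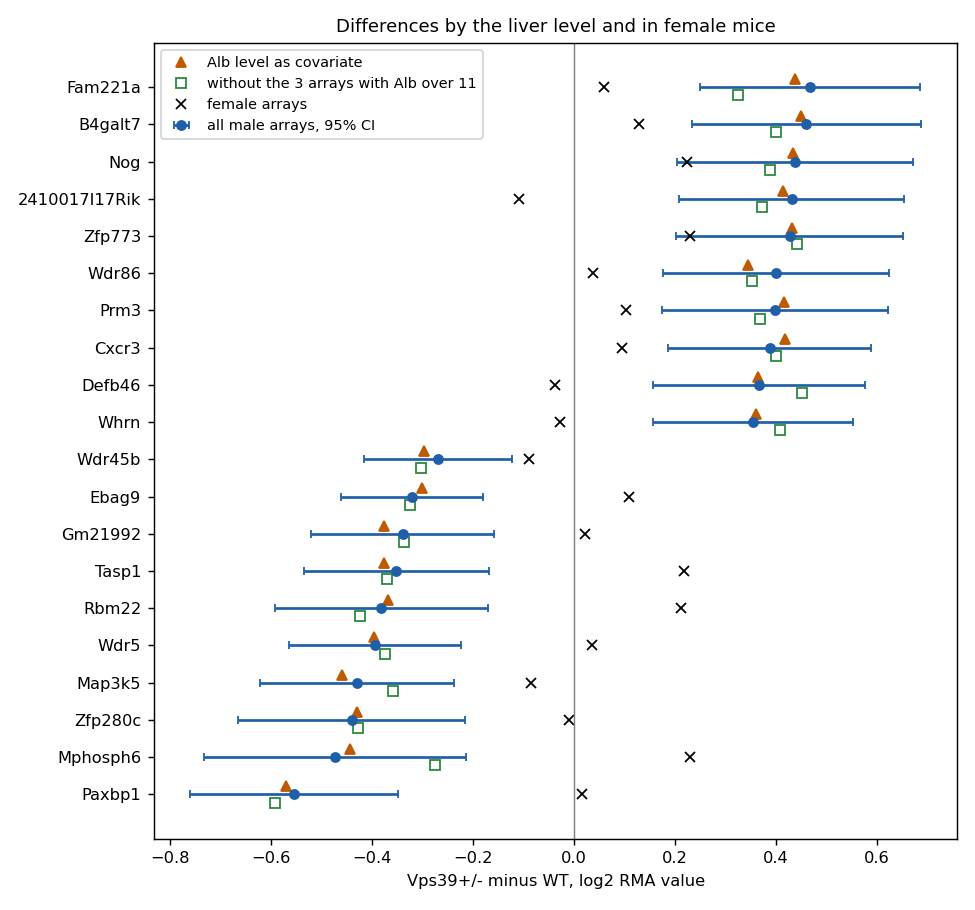
Difference between Vps39+/- and WT males in log2 RMA value for the 10 genes of smallest p in each direction, with 95% confidence intervals from the fit over all arrays (circles), the same difference with the Alb level as a covariate (triangles), without the 3 arrays with an Alb value over 11 (squares) and in female mice (crosses). Triangles lie at 0.863 to 1.11 times the circles. No interval reaches 0, which follows from choosing the genes by smallest p in the same fit, and no adjusted p was under 0.05. The crosses were not recomputed for the liver level.

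The lists of the HOPS route held little movement. Of 10 HOPS and CORVET genes 0 had an unadjusted p under 0.05 and 6 were below 0. Among the subunits Vps11 and Vps18, which both complexes share, differed by -0.11 and 0.17, and Vipas39, the partner of Vps33b, by -0.22. Of 47 autophagy genes 31 were below 0, with a median of -0.03, and 1 was lower at an unadjusted p under 0.05 (2.13%). With Alb as a covariate 3 were higher and 1 lower, and without the 3 liver-rich arrays 0 were higher and 3 lower. Wdr45b, described above, is not among the 47, which hold its relatives Wipi1 (0.01) and Wipi2 (-0.08). The gene of the 2.13% was Atg12, the ubiquitin-like protein joined to Atg5 when an autophagosome grows, at 7.37 to 7.83 in WT and 7.28 to 7.53 in Vps39+/- males (-0.23, adjusted p = 0.637). Among 42 lysosomal genes 1 was lower, the acid ceramidase Asah1 (-0.33, adjusted p = 0.600). Among 32 genes of mTOR signalling 1 was lower, Depdc5, a subunit of the GATOR1 complex that restrains mTORC1 when amino acids are scarce. Depdc5 was at 5.91 to 6.48 in WT and 5.37 to 5.86 in Vps39+/- males without overlap (-0.43, adjusted p = 0.612), and at -0.31 without the 3 liver-rich arrays. Without the 3 liver-rich arrays 0 of the 42 lysosomal and 0 of the 32 mTOR genes had an unadjusted p under 0.05. The shares over all arrays, at 2.13% to 3.12%, were under the 7.00% of all probe sets.

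Lists of RNA and protein synthesis held more members below 0 than above, by small amounts. All their measured members average at least 5, and of all probe sets that bright 54.1% were below 0. Of 87 spliceosome genes 64 were below 0, with a median of -0.08, and 10 were lower and 1 higher at an unadjusted p under 0.05 (12.6% against 7.00%). The lower ones included Rbm22, Cdc5l, a core protein of the Prp19 complex (6.44 to 6.68 in WT against 6.12 to 6.38, no overlap), Prpf39, a U1 particle protein (-0.26), and Hnrnpc, which coats nascent transcripts (-0.17, no overlap, and -0.11 without the 3 liver-rich arrays). The mean over the 87 genes lay between 7.47 and 7.54 on WT arrays and between 7.36 and 7.47 on Vps39+/- arrays. Of 54 cytosolic ribosome genes 38 were below 0, and 9 were lower and 0 higher at an unadjusted p under 0.05 (16.7%), at differences of at most 0.20, among them Rps20 (-0.19), Rps7 (-0.16), Rpl7a (-0.17) and Rps24, at 11.14 to 11.29 in WT against 10.94 to 11.09. Without the 3 liver-rich arrays the median of the spliceosome list was -0.04 with 62 of 87 below 0 and 3 lower, and that of the ribosome list -0.02 with 34 of 54 below 0 and 2 lower. Over all probe sets 457 of 19572 were lower in that setting. With cyclic loess 57 of 87 and 28 of 54 were below 0. In bulk muscle, fewer cells of a type and less RNA per cell cannot be told apart.

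Ribosomal RNA processing followed with 38 of 58 below 0 and 4 lower (6.90%): Utp18 of the small subunit processome (-0.33), Nop58 of the box C/D particles (-0.30), and Dkc1 (-0.35) and Nop10 (-0.17) of the box H/ACA particles. Without the 3 liver-rich arrays 35 of the 58 were below 0 and 3 lower. Of 41 proteasome genes 33 were below 0, with 1 lower (2.44%), the ATPase subunit Psmc5 (-0.17). Without these arrays 35 proteasome genes were below 0, with 1 higher and 1 lower. Of 25 histone acetylation enzymes 4 were lower and 0 higher (16%, against 7.00% of all probe sets): the acetyltransferases Kat6b (-0.32), Kat2b (-0.23) and Ep300 (-0.20) and the deacetylase Hdac2 (-0.17), with adjusted p between 0.616 and 0.689. The one-sidedness of this count was lost with Alb as a covariate, where 2 were higher and 1 lower, without the 3 liver-rich arrays, where 1 was higher and 2 lower, and with cyclic loess, where 2 were higher and 3 lower. Kat6b was at -0.24 with Alb as a covariate. Of 36 histone methylation enzymes 1 was higher (2.78%), the arginine methyltransferase Prmt5. It lay at 9.09 to 9.24 in WT and 9.28 to 9.42 in Vps39+/- males (0.18, adjusted p = 0.620, no overlap). Of 15 DNA methylation enzymes 1 was lower (6.67%), Tet1, which oxidises methylcytosine (-0.40, adjusted p = 0.660) and is dim, at a mean of 4.97.

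**Figure D4:**
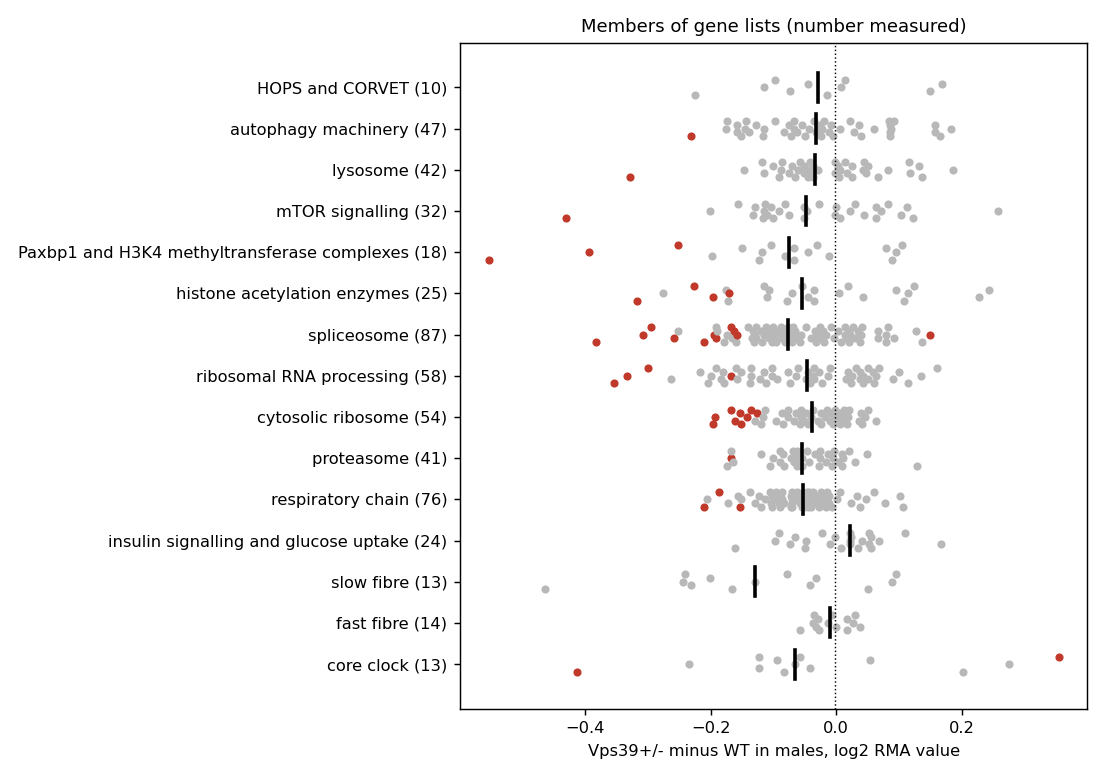
Difference between Vps39+/- and WT males in log2 RMA value for each measured member of 15 gene lists. Red points have an unadjusted p under 0.05, none has an adjusted p under 0.05, thick bars are list medians and the dotted line is the median of all probe sets. The spliceosome median lies at -0.08 and that of the slow fibre list at -0.13, where no member is red.

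Metabolic and contractile lists gave few members. Of 76 respiratory chain genes 66 were below 0, but the median was only -0.05, and 3 were lower at an unadjusted p under 0.05 (3.95%), Uqcrc2 (-0.19, and -0.12 without the 3 liver-rich arrays) and Uqcr10 (-0.15) of complex III and Ndufb10 (-0.21) of complex I. Without the 3 liver-rich arrays 49 of 76 were below 0, with a median of -0.02 and 0 lower. In females 2 of the 76 lay below 0, with a median of 0.11. Of 24 genes of insulin signalling and glucose uptake, 27 of fatty acid oxidation and 26 of glycolysis and glycogen, 0 had an unadjusted p under 0.05. The fatty acid oxidation list turned with the setting: 11 of 27 were below 0 over all arrays, 3 of 27 without the 3 liver-rich arrays (median 0.06) and 25 of 27 with the block on the title number (median -0.18). Under that block Vps39+/- males 5 and 6 add nothing to the difference. The glucose transporter Slc2a1 differed by 0.17 and the syntaxin Stx4a, which receives glucose transporter vesicles, by -0.16.

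The 14 fast fibre genes lay within -0.06 to 0.04. Of 13 slow fibre genes 10 were below 0 with a median of -0.13, and 0 had an unadjusted p under 0.05, with list means from 7.44 to 8.45 in WT and from 7.15 to 8.42 in Vps39+/- males. Without the 3 liver-rich arrays that median was -0.02. The slow myosin light chain Myl2 differed by -0.46 and Myl3 by -0.23. Among 24 myogenic regulators 1 was higher (4.17%, against 7.00% of all probe sets), Fst, the myostatin antagonist follistatin (0.29, adjusted p = 0.657). Among 12 developmental and cardiac sarcomere genes 1 was higher (8.33%), Tnni3, the cardiac troponin I. It was at 3.97 to 4.22 in WT and 4.16 to 4.78 in Vps39+/- males (0.33, adjusted p = 0.612). In further lists Nr4a2, a nuclear receptor of the immediate early genes, differed by 0.38, and by 0.63 without the 3 liver-rich arrays. The antiproliferative gene Btg2 differed by -0.32, and by -0.21 without these arrays, and the chaperone genes Hspa2 and Hspa1a by -0.38 and 0.18. The chemokine gene Cxcl10 differed by 0.35 and Rb1, which holds cells out of the cycle, by -0.22. The adjusted p of these 6 genes were between 0.612 and 0.695. Of them Nr4a2 (mean 4.92) and Cxcl10 (mean 4.39) are dim, as is Tnni3 (mean 4.28). Among 24 collagen and matrix genes, 24 of endoplasmic reticulum stress, 19 of atrophy, 17 of the neuromuscular junction, 12 of the glucocorticoid and fasting response and 10 clock output genes, 0 had an unadjusted p under 0.05. Over all lists 55 genes had an unadjusted p under 0.05. By list the share ran from 0% to 16.7%, against 7.00% of all probe sets. All 55 kept their sign with Alb as a covariate, at 0.772 to 1.34 times their size. Without the 3 liver-rich arrays 55 kept it too, at 0.402 to 1.68 times, and 7 moved by over 1.5 times: Btg2, Hnrnpc, Nr4a2, Uqcrc2, Lsm7 (-0.16 to -0.07), Prpf6 (-0.20 to -0.13) and Rpl27 (-0.20 to -0.12).

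The core clock list gave differences in both directions. The clock is a feedback loop in which Arntl (Bmal1) with its partner drives Per, Cry and Nr1d genes through E-boxes, the Nr1d (Rev-erb) receptors hold Arntl down through ROR response elements, and D-box factors act on Per genes. Arntl lay between 6.45 and 7.05 in WT, median 6.48, and between 6.79 and 7.10 in Vps39+/- males, median 6.98 (0.35 ± 0.16, adjusted p = 0.685). WT males 3 and 4 lay within the Vps39+/- range and the other 4 WT arrays below it. Per3 lay between 6.80 and 7.20 in WT, median 6.90, and between 6.17 and 6.85 in Vps39+/- males, median 6.58 (-0.41 ± 0.18, adjusted p = 0.682), where only Vps39+/- male 1 reached the WT range. Per2 differed by -0.23 and Nr1d2 by -0.12, the latter at 9.17 to 9.35 in WT against 9.05 to 9.16 without overlap, by less than 0.01. Of 13 measured core clock genes 1 was higher and 1 lower at an unadjusted p under 0.05 (15.4%, against 7.00% of all probe sets). Of the 13, 9 were below 0. With Alb as a covariate Arntl was at 0.36 and Per3 at -0.39, and without the 3 liver-rich arrays at 0.28 and -0.46. In females the differences were -0.21 for Arntl and 0.25 for Per3, and the genotype by sex interaction had an adjusted p of 0.632 for both. The hour at which muscles were collected was not used here.

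**Figure D5:**
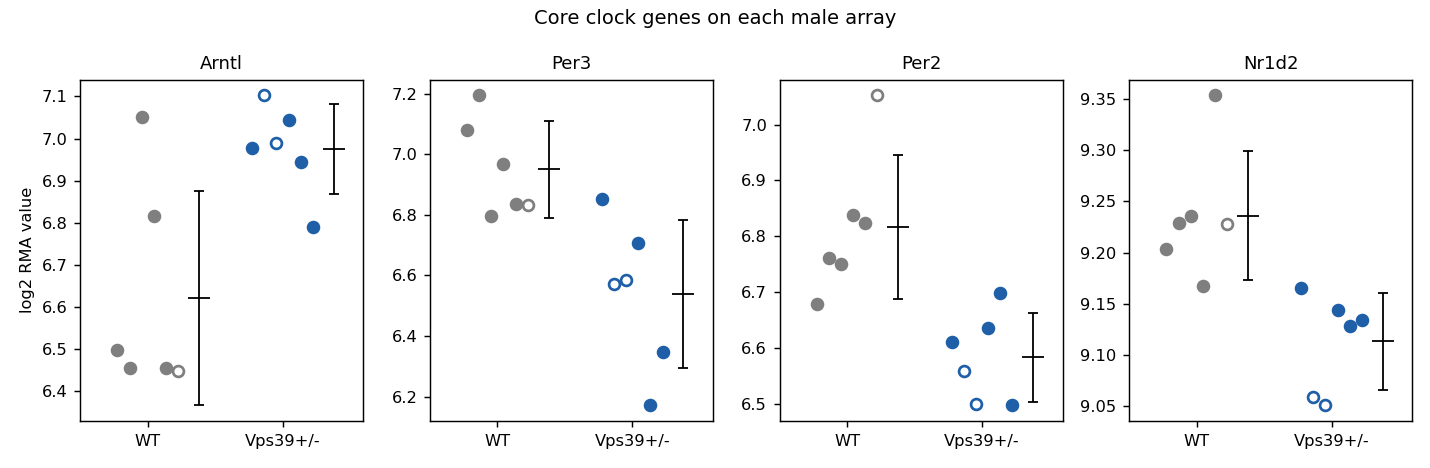
Log2 RMA values of Arntl, Per3, Per2 and Nr1d2 on each male array, drawn in order of array number within each group, with the group mean and SD. Open circles are the 3 arrays with an Alb value over 11. Arntl is higher in Vps39+/- males by 0.35 and Per3 lower by 0.41, both with overlapping groups.

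Promoters of these clock genes are shown for the response elements through which the loop is known to act. They are RefSeq sequences of GRCm38.p6 as above, at chr7:113207261-113207560 (plus strand) for Arntl, the second of 2 listed starts and the one that held a match, chr4:151044616-151044915 (minus strand) for Per3 and chr14:18239057-18239356 (minus strand) for Nr1d2. Capitals mark the E-box CACGTG, the D-box TTANNTAA and the AGGTCA core of ROR elements, on either strand.
Arntl: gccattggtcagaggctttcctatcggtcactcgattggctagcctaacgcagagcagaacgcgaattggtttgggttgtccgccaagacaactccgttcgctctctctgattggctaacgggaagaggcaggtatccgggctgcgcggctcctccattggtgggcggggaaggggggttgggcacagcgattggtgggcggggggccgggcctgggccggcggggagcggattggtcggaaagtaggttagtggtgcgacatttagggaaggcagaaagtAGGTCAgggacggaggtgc
Per3: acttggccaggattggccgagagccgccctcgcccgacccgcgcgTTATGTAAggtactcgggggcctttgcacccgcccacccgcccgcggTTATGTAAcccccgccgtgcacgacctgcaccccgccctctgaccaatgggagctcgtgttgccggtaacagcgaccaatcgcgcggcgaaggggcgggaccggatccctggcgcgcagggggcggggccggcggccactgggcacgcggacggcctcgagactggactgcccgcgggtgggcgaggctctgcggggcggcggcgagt
Nr1d2: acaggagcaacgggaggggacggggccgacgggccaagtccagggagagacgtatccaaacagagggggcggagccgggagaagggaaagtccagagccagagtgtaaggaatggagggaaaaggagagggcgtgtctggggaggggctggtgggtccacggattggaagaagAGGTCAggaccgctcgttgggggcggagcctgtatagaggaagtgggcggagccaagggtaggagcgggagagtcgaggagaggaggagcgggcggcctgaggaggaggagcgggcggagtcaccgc
Arntl held 1 AGGTCA match, Per3 held 2 D-boxes and Nr1d2 held 1 AGGTCA match. Among all 32851 promoters of this length 7.15% held the E-box, 6.00% the D-box and 16.3% AGGTCA. The letters of the E-box did not occur in these 3 windows.

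Few cell type markers had an unadjusted p under 0.05, and of the 40 hepatocyte markers 0 did. Lists with 1 such marker had a share of 8.33% to 10%, against 7.00% of all probe sets, and the other marker lists 0%. Of 11 adipocyte markers 1 was lower, Pparg, the adipogenic nuclear receptor, at 5.86 to 6.87 in WT and 5.60 to 6.48 in Vps39+/- males (-0.46, adjusted p = 0.658). Of these 11 markers 6 were above 0 and 5 below, with a median of 0.04. Of 10 lymphocyte markers 1 was higher, the T-cell receptor subunit Cd3e (0.25). The 10 were split, 5 above 0 and 5 below, with a median of -0.01. Of 12 satellite cell markers 1 was lower, the laminin receptor subunit Itga7 (-0.25), and 8 were below 0, with a median of -0.04. Of 11 smooth muscle and pericyte markers 1 was lower, the pericyte signalling regulator Rgs5 (-0.15), while 6 were above 0 and 5 below. Among 14 macrophage, 11 endothelial and 11 fibroblast and tendon markers 0 had an unadjusted p under 0.05. Cd3e is dim, at a mean of 4.01, and only 2 of the 10 lymphocyte and 8 of the 14 macrophage markers average at least 5. The adipocyte list means ranged from 6.74 to 7.90 in WT and from 6.75 to 8.48 in Vps39+/- males, and those of the fibroblast and tendon list from 5.49 to 7.61 and from 5.96 to 7.53.

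Genes that lie near Vps39 on chromosome 2 were compared with the rest, since a disrupted allele carries its neighbourhood with it. Of 232 genes within 10 Mb 7 stood higher and 13 lower at an unadjusted p under 0.05, 20 in all (8.62%), against 6.95% of 18493 other autosomal genes. The groups separated for 0 of the 232 and for 101 of the 18493 others. Over all probe sets the share was 0.542%, so 0 is near what that share gives for so few genes. The smallest p there was that of Trpm7, an ion channel with a kinase domain (-0.26, adjusted p = 0.575).

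The genotype difference in males was set against that in females in the same fit. Mean Alb was 10.46 in WT and 9.57 in Vps39+/- females, against 7.22 and 8.86 in males. The female differences were not recomputed for the liver level. By limma's interaction test 0 of 19572 probe sets (0%) were below 0.05 after adjustment and 1525 (7.79%) before it, and in females alone 8.32% were below it before adjustment. The difference of Paxbp1 was 0.02 in females, with an interaction of -0.57 (adjusted p = 0.523), and that of Wdr5 0.04 (-0.43, adjusted p = 0.583). Among probe sets averaging at least 5 the smallest interaction p belonged to Tasp1, which differed by -0.35 in males and 0.22 in females (adjusted p = 0.386). Lars, the leucyl-tRNA synthetase that also senses leucine for mTORC1, differed by -0.24 in males and 0.25 in females, and Ebag9 by -0.32 and 0.11 (adjusted p = 0.386 each). Gja1, the gap junction protein connexin 43, differed by -0.30 and 0.21 (adjusted p = 0.512).

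On the side where males were higher, Eva1a, a protein of the endoplasmic reticulum and lysosome linked to autophagy, differed by 0.29 in males and -0.28 in females. Thbs1, the matrix protein thrombospondin 1, differed by 0.45 and -0.78, and the metal-binding protein Mt2 by 0.29 and -1.0, the former at 0.46 without the 3 liver-rich arrays. Igfals, the carrier of insulin-like growth factors made by liver, differed by 0.45 and -0.90. These 4 had an interaction with an adjusted p of 0.583. Hepatocyte genes moved with this contrast, since 40 of 40 were above 0 in males and 40 of 40 below 0 in females, with medians of 1.19 and -1.26, and their part in these differences was not tested.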

How the data were processed

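RNA of whole tibialis anterior muscle was measured on Clariom S mouse arrays. The authors ran Affymetrix Expression Console 1.4.1.46 with RMA, and the deposited values are log2 intensities, 1 per probe set and array, normalised over all 24 arrays. No genome build was needed for these values. The number of arrays limits the precision. Of 28846 probe sets, 6640 controls and 2634 without a single gene symbol in the platform annotation were left out, and 19572 were tested. The model was a limma 3.58.1 fit (R 4.3.3) of 4 group means over 24 arrays (lmFit, eBayes, two-sided, Benjamini-Hochberg, threshold 0.05). Alb, the hepatocyte mean and Vps39 had exact permutation tests. The fit was tested on simulated data. Named genes were the 10 of smallest p and 5 of largest difference among those with an unadjusted p under 0.05 in each direction at a mean of 5 or more, 3 in each direction among dimmer probe sets, 4 in each direction for the interaction, and up to 4 of smallest p in each list. A gene with several probe sets entered a list with the brightest. The members of the comparison, the gene lists and this rule were chosen with earlier results of these data known. Alternatives changed the arrays, normalization, filter, prior, weights, a block on the title number and the liver level. Promoters are RefSeq sequences of GRCm38.p6.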

Additional observations from a re-analysis of the deposited data

Results flagged for a closer look

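In groups of 6 arrays, 14 of 188 groups tested (7.45%) held an array whose gap to the nearest other exceeded Dixon's 95% critical value, where chance gives about 1 in 20. For Alb (11.18) and the mean of hepatocyte genes (7.23) it was WT male 6, which was also apart for Vps18 (5.41, low) and Cxcl10 (4.48, high). Vps39+/- male 3 was low for Mphosph6 (5.23) and Hnrnpc (8.07), and Vps39+/- male 4 for Nog (5.02) and Myl3 (6.92). WT male 3 was low for Tmem212 (4.2) and high for Depdc5 (6.48). The other 4 were Map3k5 in Vps39+/- male 5 (6.24), Btg2 in Vps39+/- male 6 (6.61), Nr1d2 in WT male 5 (9.35) and Lars in WT male 2 (7.36).

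For 14 of the named genes all 6 Vps39+/- males lay on one side of the WT male mean and all 6 Vps39+/- females on the other side of the WT female mean. The genes were named for their differences in males or their interaction in the same data, so the count is no separate evidence of a sex difference. The pattern was not counted over all probe sets. The interaction (male minus female difference, log2) was 1.83 for Cpn1, 1.47 for Agxt, 1.23 for Thbs1, 0.86 for Grb7, 0.57 for Eva1a and 0.27 for Prmt5. It was -1.34 for Fam205a2, -0.70 for Mphosph6, -0.57 for Tasp1, -0.52 for Gja1, -0.50 for Lars, -0.43 for Ebag9, -0.35 for Uqcrc2 and -0.30 for Uqcr10. By limma's test none of the 14 had an adjusted interaction p under 0.05, and Cpn1 and Agxt are made by liver.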

How the results depend on the processing

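The genes were named mostly for small p or large differences on these arrays. The other settings reuse these arrays, so a kept direction was favoured. The 91 gene results kept their direction in all 2234 values under other settings, with 2230 on the same side of the adjusted threshold and 4 that passed it. Those 4 came from leaving out 1 array: the number of genes with an adjusted p under 0.05 then ranged from 0 to 1, with Paxbp1 called without WT male 4 or Vps39+/- male 2, Cnnm1 without WT male 1 and Dnase1l2 without WT male 5. In each case the array left out was the one of its group nearest to the other group. The number with an unadjusted p under 0.05 was 1038 without the 3 arrays with an Alb value over 11, an alternative chosen after seeing the data, and 1652 with a block on the number before the point in the titles, under which 14 of 76 respiratory chain genes were lower with a median of -0.13, the slow fibre median was -0.31, that of fatty acid oxidation -0.18 and that of hepatocyte genes 2.01. As this fixed block the title number leaves Vps39+/- males 5 and 6 out of the genotype difference, since no WT male carries their number. As a random block it gave 1446. Without Vps39+/- males 2 and 3 the Alb difference was -0.47 (exact permutation p = 0.790) and that of the hepatocyte mean -0.23 (exact permutation p = 0.886). Shifting arrays to the same median moved the median of all genes to -0.03 and the higher share of the unadjusted calls from 45.5% to 24.5%, while it was 46.0% with cyclic loess and 56.0% without the 3 arrays. Of 1032 list medians 31 moved by more than the WT spread. The labels carry no replicate number that would pair mice, and what the title number stands for is not stated. The number of arrays, 6 per group, and the spread of the liver level limit what can be seen, and dim probe sets are measured least well.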
